A study of Mus musculus with 6 samples.

Results

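The brush border of an enterocyte, the absorptive cell of the small intestine, carries peptidases that finish the digestion of dietary protein, and 9 of their genes were followed here: Anpep, Enpep, Dpp4, Ace, Mme, Mep1a, Mep1b, Tmprss15 and Xpnpep2. They were taken by gene symbol from 19505 named genes, and each was measured by 1 probe set, so no choice between probe sets was needed. The 6 Affymetrix arrays were made from C57BL/6J mice that received 14 daily oral doses of 2000000000 fecal exosomes while fed a high-fat diet (HFD). In 3 arrays (L-Exo) the exosomes came from donor mice on regular chow, and in the other 3 (H-Exo) from donors on long-term HFD. The methods describe male mice and exosomes prepared from feces pooled over several donors. All recipients ate HFD, and no array of mice without exosomes was analysed here. No label or method ties the 3 arrays of a group to separate animals, and the spread behind each p-value is that between arrays, which may be technical.

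Peptidases of this surface work in sequence. Enteropeptidase, encoded by Tmprss15, turns on pancreatic trypsin in the duodenum. Endopeptidases (neprilysin, the meprins) cut within peptides, aminopeptidases and dipeptidyl peptidases trim their ends, and the short products enter the cell through the peptide transporter PEPT1 and several amino acid carriers. Most of the same proteins also occur on the kidney proximal tubule, and some on lymphocytes, myeloid cells or endothelium.

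The arrays are labelled liver, and the markers went against that label. Background was taken, on each array, as the value that 95% of the negative control probes stay below, between 7.97 and 8.41 on the log2 scale. Of 10 hepatocyte markers, 1 (Cps1, which the small intestine also makes) lay above background on all 6 arrays and 6 lay above it on none. By mean, 8 of the 10 were lower in H-Exo and 2 higher (median -0.56). For 3 of the 10 the groups did not overlap, as for 9.61% of all probe sets. Of these 3, Cyp2e1 and Fgb lay below background on every array. G6pc went the other way, at 4.96, 6.78 and 6.71 in L-Exo and 5.12, 9.16 and 11.35 in H-Exo (difference 2.39, standard error 1.29). Alb, which encodes albumin, was at 8.31, 8.26 and 10.72 in L-Exo, where the arrays' backgrounds were 8.19, 8.16 and 8.31. It was thus only just above background on L-Exo 1 and L-Exo 2. In H-Exo it was at 5.14, 5.47 and 5.86, above background on none (difference -3.61, standard error 0.61, limma adjusted p = 0.761). The part of this in the differences below was not tested. All 10 enterocyte markers, Vil1 and Sis among them, lay above background on all 6 arrays, with a positive difference for 9 and a negative one for 1 (median 0.14). This lean depended on L-Exo 1. Without that array 4 were higher and 6 lower in H-Exo (median -0.029), and without H-Exo 1 all 10 were higher (median 0.15). Of 8 kidney proximal tubule markers, Cubn alone, which the ileum also makes, was above background on all 6 and 6 were above it on none (5 higher and 3 lower in H-Exo, median 0.071). The values below are therefore described as those of the arrays and not of liver. The arrays L-Exo 1 and H-Exo 1 stood apart from the others, with mean correlations of 0.951 and 0.963 with the other arrays against 0.971 to 0.975. On these 2 arrays the 6 smooth muscle markers averaged 17.64 and 17.96 against 14.71 to 16.09 on the remaining 4, and each of the 6 was highest on L-Exo 1 or H-Exo 1. In tissue samples, fewer cells of a type and less RNA per cell cannot be told apart.

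Of the 9 peptidases, 8 lay above background on all 6 arrays and Tmprss15 on none, a level that 19.1% of the named genes passed on every array. Between the groups, none of the 9 passed the test. Across the whole table of 22206 probe sets limma called 0 (0%) after adjustment. Before adjustment 901 (4.06%) had a p under 0.05. Under the methods' t-test these numbers were 921 before adjustment and 0 after it. The median difference over the 9 genes was -0.058 on the log2 scale (H-Exo minus L-Exo), beside -0.0097 over all probe sets. Anpep was within 0.5 of the highest value of every array and Tmprss15 was below background on every array. A difference could therefore be read for 7 genes, of which 2 were higher and 5 lower in H-Exo (median -0.068). Limma's 95% intervals for these 7 reached from -2.31 to 2.59, so for several of them large changes in either direction lie within the interval.

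**Figure D1:**
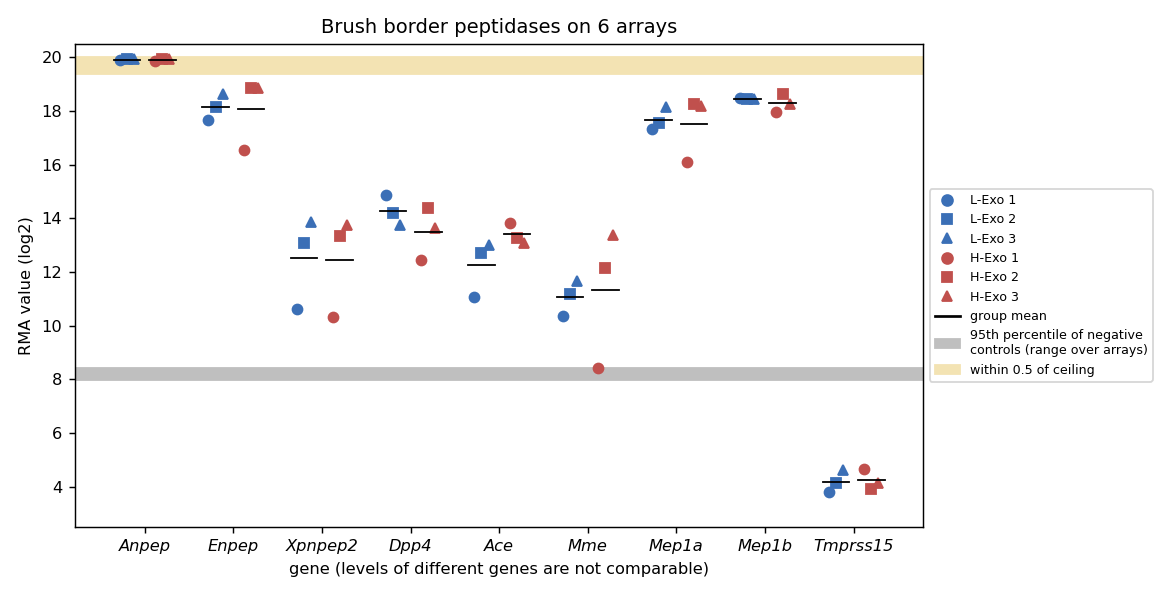
RMA values on the log2 scale for the 9 peptidases, with each point an array (blue L-Exo, red H-Exo, marker shape the replicate number) and black bars the group means of 3 arrays. The grey band spans the arrays' background levels and the yellow band the values within 0.5 of the ceiling; Anpep sits in the upper band, Tmprss15 below the grey one, and the red circles (H-Exo 1) are the lowest points for 6 of the 7 genes between the bands.

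Regulatory sequence was read for the members whose values are contrasted below. RefSeq promoters (GRCm38.p6, 250 bases before to 50 after a transcription start) were at hand for 8 of the 9 genes, in 11 entries. Enpep (chr3:129332700-129332999 on the minus strand) and Mep1a (chr17:43502724-43503023 on the minus strand) are shown because they lay nearest to the members' mean profile over the arrays, Ace (chr11:105967698-105967997 on the plus strand, the upstream start) because it ran differently, and Tmprss15 (chr16:79091048-79091347 on the minus strand) because it was at background. Capitals mark matches, on either strand, to the motifs searched, of which TATAAA is the core of the promoter element that sets the start site and was held by 13.6% of all 32851 promoters of this length. For GATA factors the search used AGATAA (11.2%), for the intestinal CDX factors it used TTTATNG (10.9%), and the longest motif searched was that of HNF4, CAAAGTNCA (1.41%).
Enpep: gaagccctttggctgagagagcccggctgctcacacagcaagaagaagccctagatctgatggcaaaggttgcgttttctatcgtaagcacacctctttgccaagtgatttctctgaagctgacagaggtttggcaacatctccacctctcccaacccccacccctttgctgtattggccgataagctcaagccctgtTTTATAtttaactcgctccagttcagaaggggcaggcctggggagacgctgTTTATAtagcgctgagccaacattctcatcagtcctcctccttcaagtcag
Mep1a: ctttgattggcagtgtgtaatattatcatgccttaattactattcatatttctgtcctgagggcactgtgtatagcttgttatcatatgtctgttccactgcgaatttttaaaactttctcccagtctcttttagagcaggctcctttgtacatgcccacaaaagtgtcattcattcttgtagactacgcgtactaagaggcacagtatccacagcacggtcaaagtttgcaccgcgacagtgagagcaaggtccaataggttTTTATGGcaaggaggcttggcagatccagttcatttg
Ace: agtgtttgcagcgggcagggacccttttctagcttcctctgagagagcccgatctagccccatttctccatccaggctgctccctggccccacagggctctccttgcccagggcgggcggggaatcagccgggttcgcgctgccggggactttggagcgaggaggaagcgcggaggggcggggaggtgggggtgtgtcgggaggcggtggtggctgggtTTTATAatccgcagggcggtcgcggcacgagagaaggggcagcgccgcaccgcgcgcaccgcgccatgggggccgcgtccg
Tmprss15: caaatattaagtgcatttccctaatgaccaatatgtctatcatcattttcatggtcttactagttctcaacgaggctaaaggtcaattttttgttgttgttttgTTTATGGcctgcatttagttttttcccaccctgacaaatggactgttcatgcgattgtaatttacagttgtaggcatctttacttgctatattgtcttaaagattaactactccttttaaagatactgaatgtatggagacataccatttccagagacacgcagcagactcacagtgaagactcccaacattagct
Positions are counted from the transcription start, with negative ones before it. Enpep held 2 TATA matches, at -52 and -1, and Ace held 1 at -31, all in reverse orientation (TTTATA as printed). Mep1a held a CDX match at 13. Tmprss15 held a CDX match at -146. Dpp4, not printed, held a GATA match at -32 and overlapping TATA and CDX matches at -227 and -228. No match was found in the entries of Anpep, Mme and Xpnpep2. The HNF4 letters were in none of the 11 entries. These matches describe the letters in the windows and are not evidence of binding.

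Among the aminopeptidases, Anpep encodes aminopeptidase N (CD13), the most general of them, which removes neutral residues from the end of a peptide. Its log2 values were 19.89, 19.93 and 19.93 on L-Exo 1, 2 and 3, and 19.88, 19.92 and 19.93 on H-Exo 1, 2 and 3, the order used throughout. It stood at the ceiling of all 6 arrays, as 28 named genes (0.144%) did, and a difference between the groups could not be read from it.

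Enpep encodes aminopeptidase A, which removes acidic residues and, in blood vessels and kidney, converts angiotensin II to angiotensin III. Its values were 17.67, 18.16 and 18.62 in L-Exo and 16.54, 18.87 and 18.87 in H-Exo. H-Exo 1 was the lowest of the 6 and the other H-Exo arrays were the highest, so the groups overlapped. L-Exo averaged 18.15 ± 0.48 (SD, n = 3) against 18.09 ± 1.34 (SD, n = 3) for H-Exo. The fitted difference was -0.058 (standard error 0.60, limma adjusted p = 0.997). Without H-Exo 1 it was 0.72 and without L-Exo 1 it was -0.30. Values lay 1.05 to 3.34 below the array's highest value.

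Xpnpep2 encodes the membrane-bound aminopeptidase P, which cuts before proline and degrades bradykinin. Its values were 10.62, 13.09 and 13.87 in L-Exo and 10.31, 13.32 and 13.75 in H-Exo. The replicate 1 arrays of both groups were low, at -2.86 (L-Exo 1) and -3.23 (H-Exo 1) relative to the mean of their group's other arrays, and the other 4 arrays lay close together. The group difference was -0.068 (standard error 1.00, limma adjusted p = 0.998), with a 95% interval from -2.31 to 2.17. It was 1.01 without H-Exo 1, -1.02 without L-Exo 1 and 0.053 without both.

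Dpp4 encodes dipeptidyl peptidase 4 (CD26), which releases dipeptides that end in proline or alanine and inactivates the incretin hormones GLP-1 and GIP. Its values were 14.89, 14.21 and 13.75 in L-Exo and 12.46, 14.39 and 13.62 in H-Exo. L-Exo 1 was the highest and H-Exo 1 the lowest of the 6, and the groups overlapped. The difference was -0.79 (standard error 0.50, 95% interval -1.93 to 0.34, limma adjusted p = 0.988). It was -0.28 without H-Exo 1, -0.49 without L-Exo 1 and 0.025 without both replicate 1 arrays. T cells also carry Dpp4. All 6 measured T cell markers lay below background on every array. Their mean ran from 5.17 to 5.71 over the L-Exo arrays, against 5.64 to 6.45 for H-Exo. The part of T cells in the Dpp4 values was not tested.

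Ace, which encodes angiotensin-converting enzyme, a dipeptidyl carboxypeptidase, was the member with the lowest p. Its values were 11.08, 12.72 and 12.99 in L-Exo and 13.84, 13.27 and 13.09 in H-Exo. The groups did not overlap, with all H-Exo values above all L-Exo values, the nearest pair being H-Exo 3 and L-Exo 3 (two-sided exact permutation p = 0.1, which is the least that 3 against 3 arrays can reach). Ace was the 1 member of 9 whose groups did not overlap, as those of 9.61% of all probe sets did not, 4.9% with H-Exo above and 4.71% with H-Exo below. L-Exo averaged 12.26 ± 1.03 (SD, n = 3) against 13.40 ± 0.39 (SD, n = 3) for H-Exo. The difference of 1.14 (standard error 0.50, 95% interval 0.020 to 2.25) had an unadjusted p of 0.0469 and a limma adjusted p of 0.988. Of all probe sets, 2.32% were higher in H-Exo at an unadjusted p under 0.05. It did not pass the test. The size depended on L-Exo 1, the lowest array, without which it was 0.55, and it was 0.33 without both replicate 1 arrays. Its highest array was H-Exo 1, the lowest array of the other 6 readable members. Endothelium also makes Ace. All 6 endothelial markers lay below background on every array. Their mean ran from 5.12 to 5.42 over the L-Exo arrays, against 4.81 to 5.26 for H-Exo. The part of endothelium in the Ace values was not tested.

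Mme encodes neprilysin (CD10), an endopeptidase that degrades many bioactive peptides, and it spread the most. Its values were 10.37, 11.19 and 11.68 in L-Exo and 8.42, 12.13 and 13.39 in H-Exo. H-Exo 1, at 8.42 against that array's background of 8.34, was the lowest of all, while H-Exo 2 and H-Exo 3 were above every L-Exo array. The SD was 0.66 in L-Exo and 2.58 in H-Exo (n = 3 each), and the range of 4.97 over the 6 arrays exceeded that of 99.5% of the 4024 probe sets above background and below the ceiling throughout. The difference was 0.23 (standard error 1.05, 95% interval -2.12 to 2.59, limma adjusted p = 0.994). It was 1.68 without H-Exo 1, with an adjusted p of 0.992, and 1.33 without both replicate 1 arrays. It turned to -0.12 without L-Exo 1, -0.18 without H-Exo 2 and -0.80 without H-Exo 3.

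Mep1a and Mep1b encode the subunits of meprin, a secreted and membrane-bound metalloendopeptidase that is abundant in rodent ileum and kidney. Mep1a, the alpha subunit, had values of 17.32, 17.56 and 18.14 in L-Exo and 16.08, 18.27 and 18.18 in H-Exo. As for Enpep, H-Exo 1 was the lowest array and the other H-Exo arrays were the highest. The difference was -0.16 (limma adjusted p = 0.992, standard error 0.56). It was 0.56 without H-Exo 1. Mep1b, the beta subunit, had values of 18.47, 18.47 and 18.46 in L-Exo and 17.95, 18.65 and 18.26 in H-Exo. The L-Exo arrays differed by little (SD 0.0082, n = 3) and the H-Exo arrays lay on either side of them. Its difference was -0.18 (standard error 0.30, 95% interval -0.85 to 0.49, limma adjusted p = 0.989), the narrowest interval of the 7 genes, at values 1.27 to 1.92 below the ceiling.

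Tmprss15 had values of 3.80, 4.13 and 4.61 in L-Exo and 4.66, 3.90 and 4.12 in H-Exo. Of the negative control probes, 9.92% to 31.9% lay below it, so no size of a difference is given and a low level of the transcript was not detectable. Enteropeptidase is known from the duodenum. Gata4, a transcription factor of the proximal small intestine, was below background on all 6 arrays, between 4.42 and 5.31. It was picked after values were seen. Of 8 enterocyte transcription factors, 4 were above background on every array and 2 on none. Whether the gut region bears on the Tmprss15 values was not tested.

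**Figure D2:**
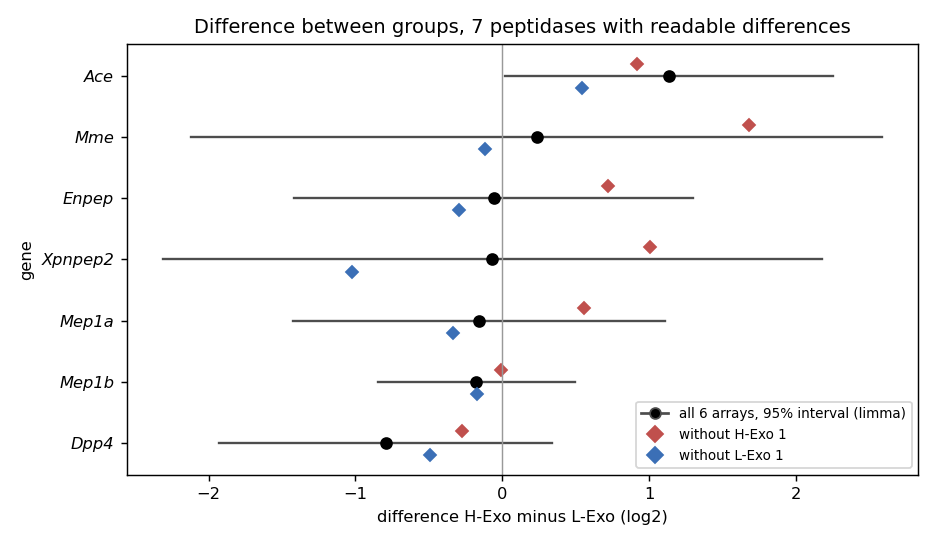
Difference between H-Exo and L-Exo on the log2 scale for the 7 peptidases that were neither at the ceiling nor below background. Black points are the fit on 6 arrays with limma's 95% interval, and red and blue diamonds leave out H-Exo 1 or L-Exo 1; for Enpep, Xpnpep2, Mep1a and Mme the 2 diamonds lie on opposite sides of 0.

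Over single arrays, H-Exo 1 was the lowest for 6 of the 7 readable genes and L-Exo 1 for Ace, but the genes differed in how they varied. Among the 4024 probe sets above background and below the ceiling, H-Exo 1 was lowest for 26.9% and L-Exo 1 for 32.9%. H-Exo 1 minus the mean of the other H-Exo arrays was -4.34 for Mme, -3.23 for Xpnpep2, -2.33 for Enpep, -2.14 for Mep1a, -1.55 for Dpp4, -0.50 for Mep1b and 0.66 for Ace. L-Exo 1 minus the mean of the other L-Exo arrays was -2.86 for Xpnpep2, -1.77 for Ace, -1.06 for Mme, -0.72 for Enpep, -0.53 for Mep1a, 0.011 for Mep1b and 0.91 for Dpp4. The 7 genes thus fell into those low on both replicate 1 arrays (Enpep, Mep1a, Mme, Xpnpep2), those low on H-Exo 1 and not on L-Exo 1 (Dpp4, Mep1b) and Ace, low on L-Exo 1 and high on H-Exo 1. This grouping was made after the values were seen.

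The smooth muscle markers were high on these same arrays, and their part in the pattern was not tested. The mean of the 10 enterocyte markers was 17.54 on L-Exo 1, 18.14 on H-Exo 1 and 18.03 to 18.49 on the other 4 arrays, but 5 of the 10 were at the ceiling on at least 1 array and their mean has little room to show a dip. Of those never at the ceiling, Vil1, which encodes the microvillus protein villin, was at 14.86, 16.76 and 17.09 in L-Exo and 16.34, 15.85 and 17.01 in H-Exo. Alpi, intestinal alkaline phosphatase, was at 13.63, 16.23 and 17.09 in L-Exo and 14.92, 16.57 and 16.00 in H-Exo. Both were lowest on L-Exo 1, and on H-Exo 1 Alpi was below the other H-Exo arrays and Vil1 between them. Gpa33 and Epcam, also never at the ceiling, were lowest on L-Exo 1 and on H-Exo 1 lay below the other H-Exo arrays. Apoa4, never at the ceiling either, was lowest on L-Exo 2 (15.08). It was at 16.36 on L-Exo 1, and at 17.78 on H-Exo 1, between the other H-Exo arrays.

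**Figure D3:**
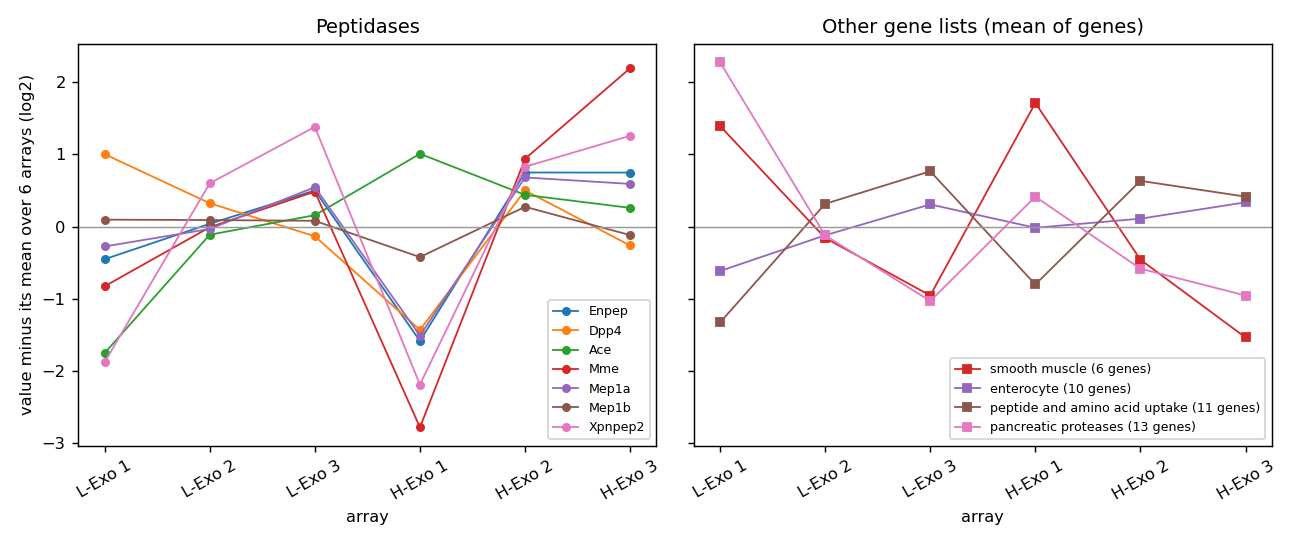
Left, values of 7 peptidases on each array minus the gene's mean over 6 arrays (log2), with lines that only join the points of a gene. Right, the same for the mean of 4 gene lists; the peptidases other than Ace dip at H-Exo 1, where the smooth muscle markers peak. The enterocyte line cannot be set against the peptidases, since 5 of its 10 genes reached the ceiling.

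The genes nearest to the members in pattern were sought among 3635 other named genes that were above background and below the ceiling on all 6 arrays. Likeness was the root mean square difference between values centred per gene and the mean centred profile of the 7 members. The nearest were Aspscr1 (0.155), Vezf1 (0.168), Baiap2l1 (0.175), Ccar1 (0.186) and Dhrs11 (0.194), where the median of all candidates was 0.749. Of the members, which make up that mean profile, Enpep (0.157), Mep1a (0.182) and Mep1b (0.584) lay nearer to it than that median. The other 4, Dpp4 (0.792), Xpnpep2 (0.818), Mme (0.891) and Ace (1.07), lay farther from it, so the mean profile describes only some of them.

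Other genes of protein digestion were described from lists, none of whose genes passed limma's test. Of 6 further surface peptidases 4 had a named probe set. Naaladl1, an ileal relative of Folh1, was at 16.33, 18.96 and 19.03 in L-Exo and 17.16, 19.03 and 19.03 in H-Exo, and Dpep1, a membrane dipeptidase, at 16.41, 17.48 and 17.19 in L-Exo and 16.14, 17.52 and 16.95 in H-Exo. Both were lower on the replicate 1 arrays of both groups, as Xpnpep2 was. Folh1, which trims glutamate from folates and peptides, and Cpm, a carboxypeptidase, lay below background on all 6 arrays. Of these 4 genes, 2 were higher and 2 lower in H-Exo (median -0.042).

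Of 8 intracellular peptidases that split absorbed peptides, 7 were above background on all 6 arrays. The difference was positive for 4 and negative for 4, with a median of -0.035. Tpp2, tripeptidyl peptidase 2, was at 10.59, 9.82 and 9.95 in L-Exo and 9.25, 9.79 and 9.23 in H-Exo. Its H-Exo values all lay below its L-Exo values, as for 4.71% of all probe sets. The difference was -0.70 (limma adjusted p = 0.988, standard error 0.33). For Dpp3 the difference was 0.44 (standard error 0.41), and for Rnpep 0.31 (standard error 0.32).

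Of 11 transporters of peptides and amino acids, 8 were above background on all 6 arrays. The difference was positive for 7 and negative for 4, with a median of 0.11. All 11 were lowest on a replicate 1 array, 8 on L-Exo 1 and 3 on H-Exo 1. Of the 4024 probe sets above background and below the ceiling, 32.9% were lowest on L-Exo 1 and 26.9% on H-Exo 1. Slc15a1, which encodes PEPT1, was at 13.42, 16.68 and 17.52 in L-Exo and 15.39, 16.69 and 15.87 in H-Exo, with overlapping groups. Slc6a19, the main carrier of neutral amino acids at the brush border, had a difference of 0.61 (standard error 0.68) and Slc1a1, a carrier of acidic ones, of 0.58 (standard error 0.46). Slc3a1, a subunit of the carrier of basic ones and cystine, had 0.29 (standard error 0.45). Without H-Exo 1 all 11 were higher in H-Exo (median 0.48), and without L-Exo 1 3 were higher and 8 lower (median -0.41).

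The pancreatic proteases that enteropeptidase sets in motion were detected in part. Of 13 measured, 3 were above background on all 6 arrays and 4 on none. The difference was positive for 1 and negative for 12, with a median of -0.77. Ctrb1, chymotrypsinogen B, was at 15.75, 12.94 and 10.87 in L-Exo and 12.92, 11.37 and 9.96 in H-Exo (difference -1.77, standard error 1.12, limma adjusted p = 0.988). Cpb1 and Cela1, a carboxypeptidase and an elastase, were also lower in H-Exo by mean (-0.87 with a standard error of 1.00, and -0.81 with 1.06). Of the 13, 11 were highest on L-Exo 1 or H-Exo 1. For all probe sets the share highest on these arrays was not computed. Without L-Exo 1, 9 were higher and 4 lower in H-Exo, with a median of 0.32. Trypsin genes resemble each other closely, and their probes may be shared.

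Among the peptides that these enzymes cleave, Gcg, which encodes the Dpp4 substrate GLP-1, was at 12.03, 12.24 and 12.10 in L-Exo and 9.86, 10.94 and 11.40 in H-Exo. All H-Exo values lay under all L-Exo values. The difference of -1.39 (standard error 0.40) did not pass (limma adjusted p = 0.988). Pyy, another Dpp4 substrate, had a difference of 0.61 (standard error 0.37), also without overlap. Over the whole list of 14, 6 had groups without overlap, where 9.61% of all probe sets did. Of these 6, Gcg and Pyy lay above background on every array, and the rest, Agtr1b among them, on none. Sst, which encodes somatostatin, a substrate of Mme, had -0.56 (standard error 0.59). Of the 14 measured peptides and receptors 9 were above background on no array, the angiotensin receptors Agtr1a and Agtr1b among them, and 7 were higher and 7 lower (median 0.013).

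Of 8 measured transcription factors of the enterocyte, 3 were higher and 5 lower in H-Exo (median -0.22). Maf was at 12.02, 13.55 and 13.30 in L-Exo and 11.27, 12.89 and 11.40 in H-Exo, with overlap (difference -1.10, standard error 0.53, limma adjusted p = 0.988). Hnf4g was at 18.12, 17.53 and 18.01 in L-Exo and 15.31, 17.14 and 18.40 in H-Exo, lowest on H-Exo 1 (difference -0.94, standard error 0.66). Its paralog Hnf4a was at 14.43 on H-Exo 1, within the range of the other arrays, 13.21 to 15.04.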

How the data were processed

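RNA was measured on 6 Affymetrix arrays, 3 L-Exo and 3 H-Exo. Per the labels and the submitters' processing notes, Transcriptome Analysis Console 4.0 and RMA (background correction, normalization between arrays, summary per probe set) gave the deposited log2 values. RMA settings and genome build: not given in the sources used here. Values near the ceiling or the floor understate differences.

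Of 28846 rows, 5222 negative and 1418 other control probes were left out, and 22206 probe sets were fitted (limma 3.58.1, R 4.3.3, functions lmFit and eBayes, two-sided test) with Benjamini-Hochberg adjustment and a threshold of 0.05, without a filter. Platform annotation named 19572 of them with 1 symbol, and the 2634 without a single symbol were treated as unnamed. A gene with several probe sets was represented by the brightest on average. Exact permutation tests used scipy 1.17.1. The limma step was tested on simulated data. Saturation meant within 0.5 of the array's highest value. The share of probe sets above background was 22.3% to 26.7% per array. Precision is limited by how few arrays there are.

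The members, lists and levels were chosen with earlier results of these data known. Named were the 9 members, the genes nearest in pattern and, per list, up to 3 genes with the smallest p among those above background on at least 3 arrays, or those that passed. Vil1, Alpi, Sis, Epcam, Cyp2e1, Fgb, G6pc, Slc15a1, Gata4, Folh1, Cpm, Agtr1a and Agtr1b were added after values were seen. Alternatives were trend and robust settings, a dim filter, quantile and median normalization, array weights, the replicate block, single arrays left out, the methods' t-test and other background levels. Leaving out both replicate 1 arrays was chosen after seeing the data.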

Additional observations from a re-analysis of the deposited data

How the results depend on the processing

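The count of probe sets at an adjusted p under 0.05 was 0, and it was 10 with array weights, 921 under the methods' t-test before adjustment, 0 to 1 with 1 array left out and 1 without both replicate 1 arrays (chosen after seeing the data). The single call was Dbp without L-Exo 1 and without both, and Pla2g4c without H-Exo 3. No member was called under any of them, with adjusted p from 0.562 upward. Ace stayed higher in H-Exo (by 0.33 or more) and Mep1b lower (-0.36 to -0.0071). The median of the 9 genes ran from -0.45 to 0.56. Directions turned as follows, and the cause was not tested. With array weights Enpep was at 0.23 and Mep1a at 0.19. Without both replicate 1 arrays Enpep was at 0.48, Dpp4 at 0.025, Mep1a at 0.38 and Xpnpep2 at 0.053. With 1 array left out Enpep ran from -0.45 to 0.72, Mep1a from -0.54 to 0.56, Mme from -0.80 to 1.68 and Xpnpep2 from -1.02 to 1.01. At a background set by 99% of the negative controls, 5 of the 9 were above it on all 6 arrays in place of 8 (Ace on 5, Xpnpep2 on 4, Mme on 2). No label or method says whether the replicate numbers pair the arrays. Deviations of same-numbered arrays from their group means correlated at 0.219, 0.0429 and 0.182. These values cannot settle it, since the deviations of the 3 arrays in a group sum to 0. With the replicate number as a block the count was 0 and the differences were unchanged, with an adjusted p of 0.881 for Ace. Before adjustment 1154 probe sets had a limma p under 0.05 with the block, against 901 without it.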

Other observations

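Relatives of the members in their enzyme families were mostly at background. Of 21 measured, 15 were above it on no array and 5 on every array. The difference was positive for 12 and negative for 9, with a median of 0.023 on the log2 scale. Those above it included St14, the matriptase of epithelial surfaces, with a difference of 0.46 (standard error 0.41), and Tmprss4, another membrane serine protease, with -0.45 (standard error 0.40). Ece1, an endothelin-converting enzyme related to Mme, was above background on 5 arrays and had a difference of 0.73 (standard error 0.51). None passed limma's test. Of 5 measured B cell markers none lay above background on all 6 arrays and all 5 were higher in H-Exo (median 1.97), with means of the list from 4.76 to 5.07 over the L-Exo arrays against 5.60 to 7.80 for H-Exo. Of 6 myeloid markers 3 were higher and 3 lower (median 0.18). Lyz2, which encodes a lysozyme, was above background on all 6 arrays, and 4 of the 6 markers were above it on none. Of 5 crypt markers 2 were higher and 3 lower, and Mki67 alone was above background on all 6 arrays, with a difference of -0.35 (standard error 0.37). Top2a, another proliferation marker, had -0.040 (standard error 0.57). The list's median was -0.039. Among the enterocyte markers Apoa4, an apolipoprotein of chylomicrons, had 1.66 (standard error 0.67, limma adjusted p = 0.988), Gpa33 0.49 (standard error 0.32) and Krt20, at the ceiling on 3 arrays, 0.16 (standard error 0.28). Of the 6 smooth muscle markers 1 was higher and 5 lower (median -0.17), with -0.58 for Tagln (standard error 0.98), -0.22 for Acta2 (standard error 0.38) and 0.26 for Myh11 (standard error 0.52). Without L-Exo 1 all 6 were higher (median 0.49) and without H-Exo 1 all 6 lower (median -1.35). Of the 6 T cell markers all were higher in H-Exo by mean (median 0.69), and of the 6 endothelial markers 1 was higher and 5 lower (median -0.26), each below background on every array.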
